A study of Mus musculus with 6 samples.

Results

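In mouse embryonic stem cells without DNA methyltransferases (TKO cells), 791 chromatin sites were called for the histone chaperone DAXX that had no counterpart in the list of ATRX sites of wild-type (WT) cells. They are described here by position, width, score and clustering, and by their overlap with the other peak lists. The members were chosen by the peak positions in these lists: a peak of the TKO DAXX list on any chromosome except 8 and 11 was kept if it shared no base with a peak of the WT ATRX list. They make up 38.7% of the 2046 peaks of that list, and 56.9% of its 1391 peaks on the chromosomes used. They are called unshared peaks here. Over the whole series, 6 lists held 7165 peaks.

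ATRX is a chromatin remodeller of the SNF2 family, and DAXX is a chaperone of the histone variant H3.3. The pair places H3.3 at heterochromatin, at telomeres, at pericentromeric satellite DNA and at endogenous retroviruses, where the histone mark H3K9me3 and DNA methylation also act to keep repeats silent. Embryonic stem cells are often used to study this division of labour, because they survive the loss of all DNA methylation.

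The series comprised chromatin immunoprecipitation with sequencing from WT J1 embryonic stem cells and from TKO embryonic stem cells, in which the DNA methyltransferase genes are knocked out. Each line was precipitated with an anti-ATRX antibody (SC-15408), an anti-DAXX antibody (SC-7152) or rabbit IgG as the background control, which gave 6 groups of 1 library. All cells were grown in embryonic stem cell medium with 2i, a pair of kinase inhibitors (1 µM PD0325901 against MEK and 3 µM CHIR99021 against GSK3), and fixed in 4% paraformaldehyde for 10 min. The sources used here do not say whether the TKO line is 1 clone. With 1 library per group no difference was tested, and every interval below is an exact 95% binomial interval that covers counting error over peaks only. The files do not state the depth of the libraries, so the absence of a peak does not show the absence of binding.

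The TKO DAXX and WT ATRX lists are not independent of each other, and this bears on each result below. Of the TKO DAXX peaks, 36.7% overlapped a WT ATRX peak, and all 750 of these were identical to it at both ends, with 0 partial overlaps. The rule therefore separated a set of identical peaks from a set without any contact. On the chromosomes used there were 600 identical peaks, called shared peaks here. The 11 of them at the start of chromosome 9 all scored lower in the WT ATRX list, the highest at 416.54 against 1671.01 in TKO DAXX. Scores of the other shared peaks were not compared between the lists. The rule read these lists, so absence from the WT ATRX list is not a finding about the unshared peaks, and their scores and widths are given as a description. Which label fits the shared peaks cannot be told from the lists, and lists are named by their labels.

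In width the unshared peaks were like the TKO DAXX list as a whole, and their scores lay slightly lower. The score is the authors' value from the peak caller and was read as a negative log10 of its p-value multiplied by 10, so a higher score means a clearer call in that library. Scores ran from 70.01 to 378.85 with a median of 79.57 and quartiles of 75.03 and 89.4. Of the 791 peaks 51.5% (47.9 to 55.0) lay below a score of 80 and 114 reached 100 or more (14.4%, 12.04 to 17.1). Over all TKO DAXX peaks the median score was 82.9, with 42.0% below 80 and 19.4% at 100 or more. The shared peaks had a median score of 86.1, and 25.2% of them (21.7 to 28.8) reached 100. The 12 highest-scoring peaks of the TKO DAXX list were all shared peaks, and the first unshared peak ranked 13. The unshared TKO DAXX peaks of chromosomes 8 and 11, 505 in number, had a median score of 82.29.

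The median width was 328 bp, and 578 peaks (73.1%, 69.8 to 76.1) were between 250 and 400 bp wide. Over all TKO DAXX peaks the median was also 328 bp, with 66.9% in that range. The narrowest measured 163 bp and the widest 5859 bp, and 13 were 1000 bp or wider. Median width was 315 bp for shared peaks and 339 bp for the unshared peaks of chromosomes 8 and 11. Width and score were only weakly related over the 791 peaks, which share 1 library (Spearman's rho 0.15, as a description).

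**Figure D1:**
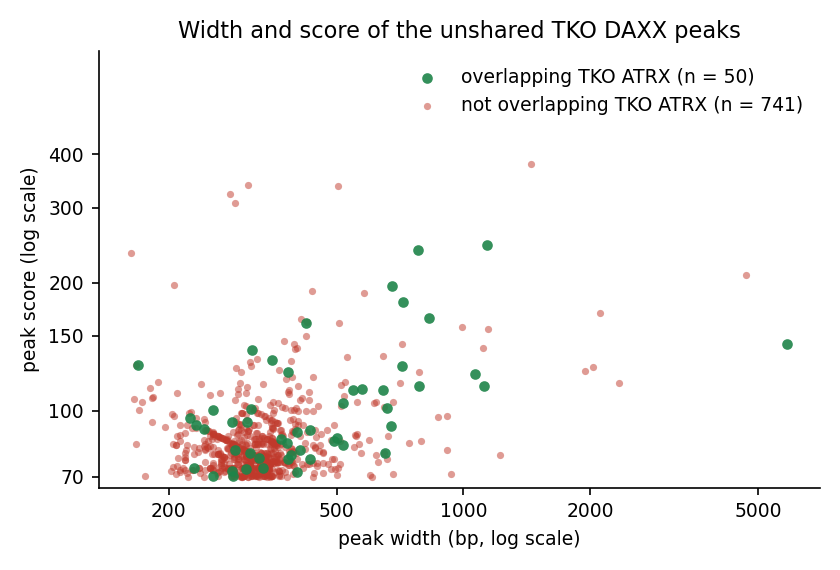
Width in bp (horizontal, log scale) and score (vertical, log scale) of the 791 unshared TKO DAXX peaks, 1 point per peak. The 50 peaks that overlap a TKO ATRX peak (green) reach further to the right, with a median width of 402.5 bp, than the 741 others (red), with 326 bp.

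The 10 highest-scoring unshared peaks without an IgG overlap fell into a few kinds of place. Several stood beside shared peaks of very high score. The top one was chr9:3006106-3007550 (score 378.85, 1445 bp), and chr9:3004398-3004900 (336.93, 503 bp) lay close to it. The next highest after the top one was chr2:98505091-98505399 (338.99, 309 bp). It lay with another unshared peak, chr2:98503804-98504254 (102.71), between the shared peaks chr2:98502369-98503165 (1286.1) and chr2:98506375-98507509 (1792.48). Both shared peaks overlapped a TKO ATRX peak, and the unshared ones did not.

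Others stood alone. The peak chr6:103599028-103599307 scored 322.23 over only 280 bp, 2.58 Mb from the next unshared peak and 2.39 Mb from the nearest WT ATRX peak. The peak chr12:3109851-3110137 scored 307.66 over 287 bp, chr14:122968165-122968327 scored 235.28 over 163 bp, and chr1:121943668-121943873 scored 197.56 over 206 bp. These 4 narrow peaks overlapped no peak of the TKO ATRX, WT DAXX or IgG lists. The chromosome 12 peak lay 72799 bp from a WT IgG peak and 72787 bp from a TKO IgG peak. The chromosome 1 peak lay 33.7 kb from a WT ATRX peak.

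The wide interval chr1:24618358-24623041 covered 4684 bp with a score of 208.15. It too was in no other list, and the nearest TKO ATRX peak was 3.43 Mb away. The remaining 2, chr6:142698846-142699981 (245.28) and chr5:100779762-100780541 (238.07), were also called for ATRX in TKO cells. At the other end of the range the lowest scores were 70.08 at chr6:97273154-97273462, 70.03 at chr2:166603184-166603479 and 70.01 at chr2:75712104-75712450, just above the list's floor.

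Of the 4 lists that the rule did not use, the unshared peaks met TKO ATRX most often. The TKO ATRX list is also the longest of the 4, with 1650 peaks. Of the 791 peaks 50 overlapped a TKO ATRX peak (6.32%, 4.73 to 8.25), against 5.47% of all TKO DAXX peaks. The share was thus near the background of the list. Among shared peaks it was 45 of 600 (7.5%, 5.52 to 9.91), and among the unshared peaks of chromosomes 8 and 11 it was 16 of 505 (3.17%, 1.82 to 5.09). Seen from the ATRX side, 45 of the 1451 TKO ATRX peaks on these chromosomes met an unshared DAXX peak (3.1%, 2.27 to 4.13). The median distance from an unshared peak to the nearest TKO ATRX peak was 273 kb, and 65 peaks had one within 1 kb.

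As in the whole TKO DAXX list, the share meeting TKO ATRX was larger among peaks of higher score and among wider peaks. At a score of 100 or more 22 of 114 unshared peaks overlapped it (19.3%, 12.5 to 27.7), and below 100 it was 28 of 677 (4.14%, 2.77 to 5.92). Over all TKO DAXX peaks the same classes gave 16.2% and 2.91%. They gave 21.2% (15.0 to 28.6) and 2.90% (1.55 to 4.90) for shared peaks, and 12.3% and 1.42% for the unshared peaks of chromosomes 8 and 11. At 400 bp or wider 26 of 132 unshared peaks overlapped TKO ATRX (19.7%, 13.3 to 27.5), against 24 of 659 narrower ones (3.64%, 2.35 to 5.37). Over all TKO DAXX peaks these shares were 17.9% and 2.43%, and for shared peaks 30.9% and 2.24%. A wider peak has more bases with which to meet another, and how far width sets these shares was not tested.

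Where both factors were called, the DAXX peak lay mostly inside the ATRX peak. In 47 of the 50 pairs at least 50% of the DAXX peak lay inside the ATRX peak, and the median was 97.1% of its length. In 20 pairs the DAXX peak lay wholly inside the ATRX peak, and in 8 pairs the ATRX peak lay wholly inside the DAXX peak. The reverse held less: in 13 of 50 pairs the DAXX peak covered under 50% of the ATRX peak. Counted pair by pair, the ATRX peaks were wider, with a median of 546.5 bp against 402.5 bp. They also stood high in the TKO ATRX list. In 37 of 50 pairs the ATRX peak reached that list's median score of 80.5, and in 17 it ranked in the top 100. The score was higher in the ATRX list in 28 of 50 pairs, which is no measure of relative binding, since scores depend on depth and control. Some pairs share a site: 3 TKO ATRX peaks met 2 unshared peaks each and 1 met 3.

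**Figure D2:**
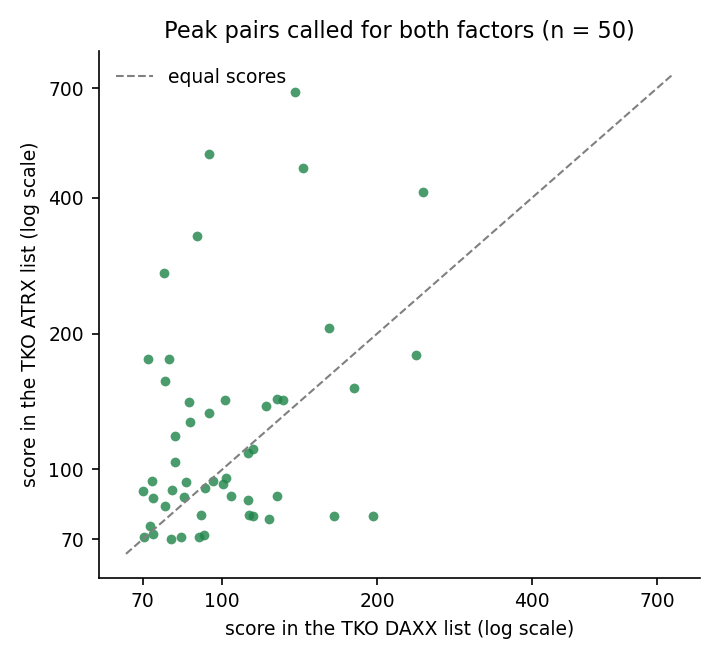
Score in the TKO DAXX list (horizontal) against score in the TKO ATRX list (vertical), both on log scales, for the 50 pairs of overlapping peaks. Points lie on both sides of the line of equal scores, and the highest ATRX score, 685.7, belongs to a pair with a DAXX score of 138.8.

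By the mean of their ranks in both lists, the leading site was chr6:142698846-142699981, with scores of 245.28 for DAXX and 411.15 for ATRX. The DAXX peak lay wholly inside the ATRX peak there and covered 93.8% of it. The next was chr5:100779762-100780541 (238.07 and 179.1).

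After it came the widest unshared peak, chr17:39979928-39985786, with a score of 143.45 over 5859 bp. The TKO ATRX list held nearly the same interval, 2 bp away at the start and 1 bp at the end, with a score of 465.08. No WT peak of either factor lay near it: the nearest WT ATRX peak was 1.82 Mb away and the nearest WT DAXX peak 7.47 Mb. Repeat content was not examined here or at the other named sites. Whether reads from repeated copies pile up at them was not tested.

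At chr12:4537723-4538037 (138.8) the DAXX peak covered 27.8% of a wider ATRX peak that scored 685.7, the second highest of the TKO ATRX list. It was followed by chr9:121606753-121607175 (160.95 and 206.15), chr12:70712072-70712791 (180.22 and 151.33) and chr12:3235706-3236056 (131.39 and 142.69). The last of the 10 were chr2:152727103-152727815 (127.68 and 143.58), chr17:85012649-85013716 (121.77 and 138.24) and chr4:139460099-139460884 (114.72 and 110.81). Chromosome 12 held 3 of these 10 sites, 5 of the 50 unshared peaks that met TKO ATRX and 46 of all 791 (5.82%).

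The unshared peaks were next compared with the DAXX list of wild-type cells, in which 1 of 791 had an overlapping peak (0.126%, 0.00320 to 0.702), against 0.489% of all TKO DAXX peaks and 9 of 600 shared peaks (1.5%, 0.688 to 2.83). The interval of the unshared peaks includes the share of the whole list. The 1 site was chr12:102343139-102343431, with scores of 77.26 in the TKO DAXX list and 52.39 in the WT DAXX list, whose lowest score is 50.02. Widening the search to 1 kb added no further site. The median distance to the nearest WT DAXX peak was 1379 kb, in a list of only 570 peaks.

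The WT ATRX peaks outside the shared set gave the opposite order. On the same chromosomes 594 WT ATRX peaks overlapped no TKO DAXX peak. Of these 21 overlapped a WT DAXX peak (3.54%, 2.20 to 5.35) and 9 a TKO ATRX peak (1.52%, 0.695 to 2.86). For the unshared TKO DAXX peaks the shares were 0.126% and 6.32%. In these sets each list overlapped the other factor's list of its own labelled line more often than its own factor's list of the other line. The TKO ATRX list (1650 peaks) is longer than the WT DAXX list (570), and the part of list length in these shares was not tested. Shared peaks (7.5% for TKO ATRX and 1.5% for WT DAXX) and all TKO DAXX peaks (5.47% and 0.489%) had the same order as the unshared peaks. Shares over all WT ATRX peaks are not given here. These differences between sets were not tested.

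**Figure D3:**
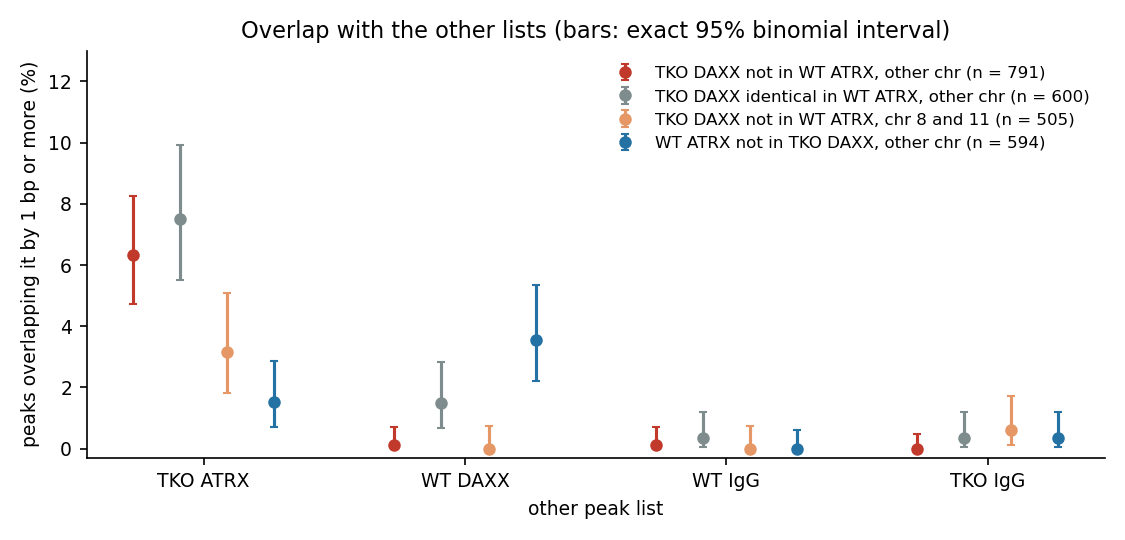
Share of peaks (vertical, in percent) that overlap each of 4 other peak lists (horizontal) for 4 sets of peaks, with exact 95% binomial intervals as bars. The unshared TKO DAXX peaks (red) stand at 6.32% for TKO ATRX and 0.126% for WT DAXX, and the WT ATRX peaks outside the shared set (blue) at 1.52% and 3.54%.

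Few IgG peaks met the unshared sites, as in the TKO DAXX list as a whole. In the WT IgG list 1 of 791 met a peak (0.126%, 0.00320 to 0.702), against 0.147% of all TKO DAXX peaks. In the TKO IgG list it was 0 of 791, which allows a share of up to 0.379% (3 counts of 791; the exact interval reaches 0.465%), against 0.244% of all TKO DAXX peaks. Within 1 kb there were 5 and 2 unshared peaks. The overlapping site was chr9:3014220-3014507 (score 126.04), inside the WT IgG peak chr9:3013660-3015124, which holds 700 tags (reads), the highest number in that list, where the median is 34. Because the sources used here do not name the control of each call, the low overlap does not show that the unshared peaks are free of background.

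Most unshared peaks stood alone, and a few gathered in tight groups. Of the 791 peaks 153 had another unshared peak within 100 kb (19.3%, 16.6 to 22.3), and 47 within 10 kb. The median distance to the next one was 422 kb. Shared peaks are fewer, which by itself widens their spacing, and had a partner of their own kind within 100 kb in 10.3% of cases (8.01 to 13.1). With any TKO DAXX peak counted as a partner, the share was 28.2% for unshared peaks and 23.3% for shared peaks. Over the whole list, which includes chromosomes 8 and 11, it was 38.2% (36.1 to 40.3). On chromosomes 8 and 11, 59.2% of unshared peaks (54.8 to 63.5) had another unshared peak within 100 kb. Linked at 100 kb, the 791 peaks made 638 single sites, 54 pairs, 6 groups of 3 and 1 group each of 5, 6 and 16.

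The group of 16 lay at the start of chromosome 9, from 3002916 to 3037621. Its peaks covered 30.6% of 34.7 kb and scored from 72.34 to 378.85, with a median of 142.47. They lay in runs of up to 6 between shared peaks, of which this stretch and its flanks held 11, with scores from 177.58 to 1671.01 and a median of 412.31. The shared peaks were also wider, with a median of 959 bp against 470 bp. In the first 3.1 Mb of the chromosome the TKO DAXX list held 27 peaks, the WT ATRX list 11, the TKO ATRX list 6, the WT IgG list 1, and the WT DAXX and TKO IgG lists 0.

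**Figure D4:**
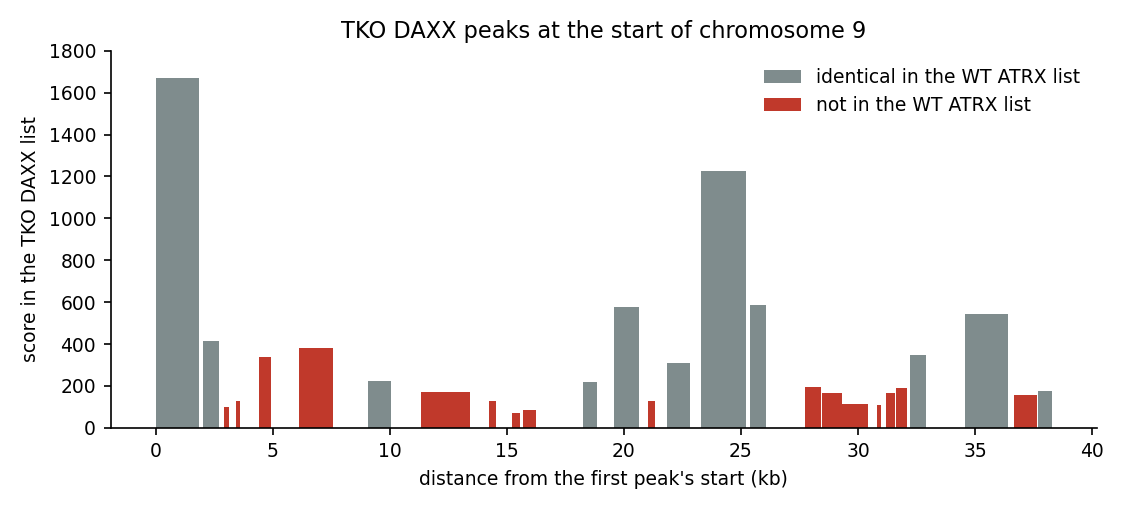
Score in the TKO DAXX list (vertical) of the 27 peaks at the start of chromosome 9, drawn at their distance from the start of the first peak in kb (horizontal) with bars as wide as the peaks. The 16 unshared peaks (red) lie between the 11 shared peaks (grey), whose scores reach 1671.01.

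The group of 6 lay near the end of chromosome X, from 166578438 to 166614156, with scores from 79.66 to 161.18. It held 2 of the wider unshared peaks, chrX:166579406-166581433 (2028 bp) and chrX:166612218-166614156 (1939 bp). The span also contained 1 shared peak, 2 TKO IgG peaks and no TKO ATRX peak, though none of the 6 overlapped an IgG peak. It held 6 of the 12 unshared peaks of that chromosome.

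The group of 5 spread over 185 kb of chromosome 17, from 6273680 to 6458338, with scores from 71.15 to 90.1. This span also held 11 TKO IgG and 2 WT IgG peaks, and 1 TKO ATRX peak that 2 of the 5 overlapped. The part of IgG background in these groups was not tested. The other wide peaks, chr12:4219354-4221696 (2343 bp, score 116.57) and chr9:3011309-3013419 (2111 bp, 169.43), overlapped no peak of another list. The chromosome 9 peak lay 240 bp from the WT IgG peak chr9:3013660-3015124, which holds 700 tags.

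The unshared peaks were spread over all the chromosomes used, at uneven density. Over the span covered by any peak, the unshared peaks averaged 0.342 per Mb, against 1.53 per Mb on chromosome 8 and 2.60 per Mb on chromosome 11, which the rule leaves out. Among the chromosomes used, chromosome 17 had the highest density with 53 peaks (0.614 per Mb), followed by chromosome 5 with 70 (0.473) and chromosome 6 with 67 (0.459). On chromosome 17 unshared peaks made up 70.7% of the TKO DAXX peaks (59.0 to 80.6). On chromosome 18 the figure was 42.5% (27.0 to 59.1), on chromosome 19 it was 44.9% (30.7 to 59.8) and on chromosome 2 it was 46.3% (37.3 to 55.6). Chromosome X had 12 unshared peaks (0.0734 per Mb), and it was sparse for shared peaks (0.0550 per Mb) and TKO ATRX peaks (0.116 per Mb) as well. The 1 peak on chromosome Y, chrY:2652187-2652355 (128.01), overlapped a TKO ATRX peak.

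**Figure D5:**
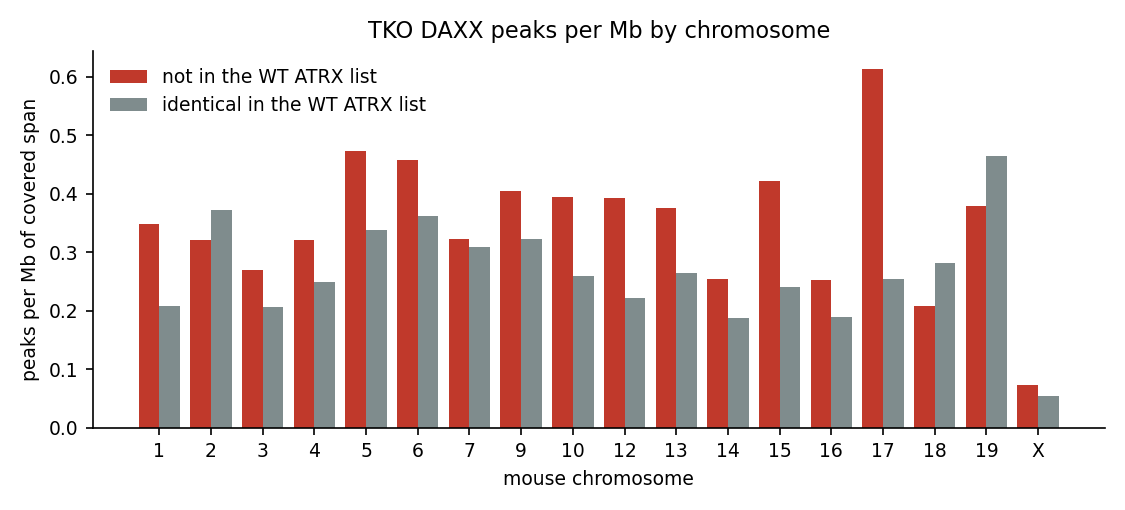
Number of TKO DAXX peaks per Mb of covered span (vertical) by chromosome (horizontal; 8, 11 and Y are not drawn), for unshared (red) and shared (grey) peaks. Unshared peaks are densest on chromosome 17, at 0.614 per Mb, and sparsest on X, at 0.0734 per Mb.

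Within chromosomes the ends were richer in unshared peaks than their length would give. The first and last 10 Mb of the covered spans, 15.7% of their length, held 217 of 791 peaks (27.4%, 24.4 to 30.7). The last 10 Mb held 130 and the first 87, of which 16 were the group on chromosome 9. Over all TKO DAXX peaks the share was 30.0% (28.0 to 32.0), and over the unshared peaks of chromosomes 8 and 11 it was 40.2% (35.9 to 44.6). It was 24.7% (21.3 to 28.3) for shared peaks, 24.1% (20.7 to 27.7) for WT ATRX peaks outside the shared set and 24.7% (22.6 to 26.8) for TKO ATRX peaks, so the excess at the ends was common to these sets. Gene density and mappability along the chromosomes were not analysed here.

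Of 247 windows of 10 Mb, 204 held an unshared peak, with a median of 3, and 11 of the 43 empty ones were on chromosome X. The fullest was chromosome 5 from 110 to 120 Mb with 19 unshared and 6 shared peaks. The start of chromosome 9 came next with 16 and 11, then chromosome 13 from 50 to 60 Mb with 13 and 6, and chromosome 6 from 140 to 150 Mb with 13 and 5. Chromosome 4 from 150 to 160 Mb held 12 unshared peaks and 2 shared ones.

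Few unshared peaks were close misses of the rule. The nearest to a WT ATRX peak was chr3:144152958-144153390 (score 77.05), 9 bp from the WT ATRX peak chr3:144153400-144153857. A single TKO ATRX peak, chr3:144152852-144154137 (272.57), spanned both. Next were chr1:129962842-129963411 at 12 bp and 3 peaks of the chromosome 9 group, chr9:3036629-3037621, chr9:3031624-3032060 and chr9:3002916-3003138, at 37, 161 and 225 bp. In all 14 unshared peaks lay within 1 kb of a WT ATRX peak and 189 (23.9%) within 100 kb, and the median distance was 337 kb. On the other side of the rule every removed peak was identical to a WT ATRX peak.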

How the data were processed

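Each of the 6 libraries has 1 deposited peak list. The submitters' processing notes name Bowtie2, Picard and build mm9, with no versions or roles. Peak names and table columns are those of MACS, per the file headers, and the sources used here do not give its version, settings or controls. For ATRX and DAXX the authors deposited a score per peak, without a header. The IgG tables give counts of tags, a p-value score on a log10 scale and a fold ratio over background, per the file headers.

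BED starts were changed to count from 1. Overlap meant 1 bp or more (Python 3.11.15, numpy 2.4.6, pandas 2.3.3, scipy 1.17.1), and bedtools 2.31.1 gave the same 791 members. The overlap code was tested on simulated data. The members and lists were chosen with earlier results of these data known. Named regions were the 10 highest-scoring members without IgG overlap, the 10 with the best mean rank with TKO ATRX, all meeting WT DAXX or IgG, the 5 widest, the 3 largest groups, the 5 nearest to WT ATRX and the 3 lowest-scoring. Others named, the second unshared chromosome 2 peak, chrX:166612218-166614156, the chromosome Y peak and the chromosomes and windows, were chosen after their values were seen. Alternatives varied the overlap, score cut, merging, distances and windows. Gene annotation and genome sequence were not used here, so the fixed gene lists were not applied.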

Additional observations from a re-analysis of the deposited data

How the results depend on the processing

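Of 49 recomputed values 34 stayed within the interval of the reported value, or within 1.5 times for the number of peaks, and 15 moved. Cuts by score moved 10 of them. In the upper 50% of the list by score there were 328 unshared peaks with a median width of 337.5 bp. Of these 10.7% overlapped TKO ATRX, 0% overlapped WT DAXX and 14.0% had another within 100 kb. At a score of 100 or more there were 114, with a median width of 396.5 bp, of which 19.3% overlapped TKO ATRX, 0% WT DAXX and 0.877% WT IgG. The WT DAXX and WT IgG shares rest on 1 peak each, and the peak meeting WT DAXX scored 77.26, below both cuts. At a score of 100 or more their intervals (0 to 3.18 and 0.0222 to 4.79) include the main share of 0.126%. Another unshared peak lay within 10 kb for 5.94% and within 1 Mb for 69.9%. End windows of 5 Mb held 17.95% and of 20 Mb 42.4%. Those last 4 follow from the distance chosen. Without the first 3.1 Mb of chromosome 9, a setting added after the data were seen, the WT IgG overlap was 0%, since the only overlapping peak lies there, and the TKO ATRX overlap was 6.06%. Sequence composition was not run, because a genome of the files' build was not used here. No paired analysis was possible because each group holds 1 library and no test was made. Unknown depth limits any reading of a missing peak.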

Other observations

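Scores of the unshared peaks were often tied. The 791 peaks carried 567 distinct scores, and 319 peaks (40.3%) had a score that another unshared peak also had. The most frequent values were 73.55 with 31 peaks, 70.28 with 21 and 79.57 with 16, so ranks among the lower peaks rest on small differences. The score of a pair was only loosely related between the factors, with a Spearman's rho of 0.27 over the 50 pairs with TKO ATRX, given as a description of 2 libraries whose pairs partly share sites.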
